A study of Mus musculus with 45 samples.

Results

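The 10 chemokine genes described here, Cxcl1, Cxcl2, Cxcl5, Cxcl10, Cxcl16, Ccl6, Ccl9, Ccl20, Ccl25 and Ccl28, were taken by symbol from both tables of expression values, of 52636 genes each, and all 10 were present in both. They were followed across developmental stage, gut region, Lgr5 genotype, Rspondin ligand and Rspondin dose in 45 libraries, 15 of sorted cells and 30 of organoids. Lgr5 is the receptor for Rspondins that marks intestinal stem cells (ISCs). Each level is given as CPM, the reads of a gene scaled to a common total of reads on genes per library.

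Sorted cells were eGFP+ cells of the small intestine of Lgr5-DTReGFP mice, in which a knockin into the Lgr5 gene places the reporter under the control of its promoter. Heterozygous (HE) cells carry the knockin beside a wild-type allele and homozygous cells (KO) lack Lgr5, so every sorted control also carried a disrupted allele. At E16.5 each library was a pool of whole small intestines of 1 litter: HE pool 1 held 7 embryos and KO pool 1 held 2 embryos of litter 85, and HE pool 2 held 8 embryos and KO pool 2 held 6 embryos of litter 97. At E18.5 the 2 HE libraries came from 1 embryo each, and the adult HE libraries came from duodenum and ileum of the same 2 mice (numbers 71 and 77) at 2 months of age. The remaining 5 sorted libraries were eGFP+/RFP+ cells of the ileum of 2-month-old Lgr5-Cre mice taken 48 h after 2 mg of tamoxifen, 2 labelled HE (Lgr5-Cre/+) and 3 labelled conditional knockout (cKO, the Cre knockin opposite a floxed Lgr5 allele). In these mice Cre is expressed from the Lgr5 locus. Organoids are epithelial cultures without mesenchyme. They were grown from E17.5 embryos of the Lgr5-DTReGFP line as 3 wild-type (WT10, WT5, WT30) and 2 KO (KO7, KO2) cultures, each from 1 embryo and at passage 4, and each was kept in mouse Rspo1, Rspo2 or Rspo3 at 5 or 100 ng/ml.

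Chemokines are small secreted proteins that guide leukocytes along a concentration gradient through G protein-coupled receptors. The epithelium of the gut makes several of them. Cxcl1, Cxcl2 and Cxcl5 attract neutrophils through Cxcr2, and their genes are typical targets of NF-kB. Cxcl10 is induced by interferons and acts on Cxcr3 of activated T cells, whereas Cxcl16 is made as a transmembrane protein and binds Cxcr6. Ccl6 and Ccl9 are rodent ligands of Ccr1 on myeloid cells. Ccl20 recruits dendritic cells and lymphocytes bearing Ccr6, Ccl25 directs lymphocytes bearing Ccr9 to the small intestine, and Ccl28 acts on Ccr10 of plasma cells at mucosal surfaces.

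All 10 are protein-coding genes on GRCm38. Cxcl5 (ENSMUSG00000029371, chr5:90759360-90761624), Cxcl1 (ENSMUSG00000029380, chr5:90891241-90893115) and Cxcl2 (ENSMUSG00000058427, chr5:90903871-90905938) lie in a row on the + strand, with 130 kb between Cxcl5 and Cxcl1 and 11 kb between Cxcl1 and Cxcl2. Cxcl10 (ENSMUSG00000034855, chr5:92346638-92348889, - strand) lies 1441 kb further on. Ccl9 (ENSMUSG00000019122, chr11:83572919-83578636) and Ccl6 (ENSMUSG00000018927, chr11:83587882-83593087) are neighbours on the - strand, 9 kb apart, and Cxcl16 (ENSMUSG00000018920, chr11:70453983-70459984, - strand) is on the same chromosome. Ccl20 (ENSMUSG00000026166, chr1:83116766-83119167), Ccl25 (ENSMUSG00000023235, chr8:4325210-4360020) and Ccl28 (ENSMUSG00000074715, chr13:119623819-119654359) are on the + strand of 3 other chromosomes. Cxcl16 shares 552 exon bases (18.3% of its exons) with Zmynd15 on the opposite strand, Cxcl10 shares 133 (5.91%) with Art3 and Ccl25 shares 204 (2.74%) with Elavl1. Whether the counting used strand is not given in the sources used here. How reads on the shared bases were assigned is therefore not known for these 3 genes.

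The promoters of 6 members are shown, those with a match to a motif searched for before the transcript start. They are the 250 bases before the RefSeq transcript start (GRCm38.p6), written 5′ to 3′ along the gene. Capitals mark every match to the motifs searched in the windows from 250 bases before to 50 after the start: the NF-kB consensus, the interferon-stimulated response element (GAAA and GAAA with a gap of 2 bases of any kind), the AP-1 element (TGANTCA), the TCF/LEF core (CTTTGAA) and the CDX core (TTTATGG), on both strands.
Cxcl1, chr5:90890995-90891244, + strand: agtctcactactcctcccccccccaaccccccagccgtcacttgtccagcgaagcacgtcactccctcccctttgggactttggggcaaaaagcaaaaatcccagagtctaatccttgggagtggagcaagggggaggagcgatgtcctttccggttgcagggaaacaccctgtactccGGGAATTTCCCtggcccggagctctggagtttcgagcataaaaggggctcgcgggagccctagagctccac
Cxcl2, chr5:90903649-90903898, + strand: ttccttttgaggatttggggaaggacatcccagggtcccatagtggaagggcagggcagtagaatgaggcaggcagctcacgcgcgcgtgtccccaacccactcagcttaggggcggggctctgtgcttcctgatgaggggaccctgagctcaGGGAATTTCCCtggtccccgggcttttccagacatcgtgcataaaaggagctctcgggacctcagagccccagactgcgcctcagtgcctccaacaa
Cxcl10, chr5:92348890-92349139, - strand: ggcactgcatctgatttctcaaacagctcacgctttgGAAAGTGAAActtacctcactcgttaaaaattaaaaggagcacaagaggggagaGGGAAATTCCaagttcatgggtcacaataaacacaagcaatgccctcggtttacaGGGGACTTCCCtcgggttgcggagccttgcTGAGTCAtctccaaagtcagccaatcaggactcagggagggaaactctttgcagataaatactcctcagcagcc
Ccl9, chr11:83578637-83578886, - strand: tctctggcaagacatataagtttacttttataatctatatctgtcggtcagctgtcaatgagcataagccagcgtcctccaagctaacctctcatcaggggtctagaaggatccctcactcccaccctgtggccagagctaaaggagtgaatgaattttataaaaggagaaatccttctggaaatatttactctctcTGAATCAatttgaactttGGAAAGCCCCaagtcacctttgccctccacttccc
Ccl20, chr1:83116516-83116765, + strand: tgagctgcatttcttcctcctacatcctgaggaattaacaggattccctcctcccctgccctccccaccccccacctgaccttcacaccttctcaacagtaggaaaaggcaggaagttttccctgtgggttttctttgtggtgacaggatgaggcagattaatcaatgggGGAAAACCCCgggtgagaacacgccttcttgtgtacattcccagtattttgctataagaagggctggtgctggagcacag
Ccl25, chr8:4324960-4325209, + strand: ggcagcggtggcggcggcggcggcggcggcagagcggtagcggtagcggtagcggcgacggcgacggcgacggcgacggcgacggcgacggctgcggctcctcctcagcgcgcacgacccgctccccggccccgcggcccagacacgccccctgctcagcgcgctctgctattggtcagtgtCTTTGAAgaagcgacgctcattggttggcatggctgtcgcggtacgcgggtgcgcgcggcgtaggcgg
A match to the NF-kB consensus was present in 5 of the 9 windows that 8 of the members have (Cxcl1, Cxcl2, Cxcl10, Ccl9 and Ccl20), while 8.46% of all 32851 RefSeq windows hold one. In Cxcl1 and Cxcl2 a match on the + strand overlaps one on the - strand, and Cxcl10 holds a pair of overlapping matches and a separate one. The interferon-stimulated response element was found in Cxcl10 only (3.44% of all windows), the AP-1 element in Cxcl10, Ccl9 and Ccl28 (7.81%), the TCF/LEF core in Ccl25 (5.14%) and the CDX core in none of them (2.75%). These matches describe letters in the reference and are not measured binding. Ccl25 has a second window (chr8:4349338-4349637, + strand), which is not shown and held no match to any of the motifs. The window of Ccl6 held none either, and the match in Ccl28 lies after the start. Cxcl5 and Cxcl16 were not matched to a window.

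Sorted libraries held 1275796 to 9977524 reads on genes, so that 1 read was worth 0.1 to 0.784 CPM, and the 4 E16.5 pools were the shallowest. Organoid libraries were deeper: 5 of 30 held 18127860 to 19955604 reads, and the other 25 were too deep for their depth to be read from the rounded values. All 12 epithelial markers reached at least 1 CPM in every library. In the E16.5 pools Lgr5 was at 104 and 125 CPM in HE and 64.8 and 51.6 CPM in KO (log2 fold change -0.97, SE 0.18, adjusted p = 0.0795 by limma). In the Cre mice it was at 52.8 and 87.5 CPM in HE and 89.2, 109 and 90.7 CPM in cKO, so the library labels were not reflected in a lower Lgr5 level. That count covers all exons and does not show whether the floxed exon was deleted. The organoid library KO2 in 5 ng/ml Rspo2 stood apart from its group, with Axin2 at 433 CPM against 138 CPM in KO7. Some of the results that rest on it are given with and without it. The comparisons of KO with WT and of dose by genotype were not refitted without this library alone.

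Levels of different chemokines were compared as RPKM, the CPM per kilobase of exon. In E16.5 HE cells Cxcl1 was the highest, at 131 ± 88.2 RPKM (SD, n = 2), followed by Cxcl10 at 32.3 ± 14.9 and Ccl25 at 26.1 ± 7.57. Cxcl10 and Ccl25 did not differ beyond their spread, and Ccl28 was the lowest of the 10 at 1.28 ± 0.482. At E18.5 Ccl25 led with 25.4 ± 0.226 RPKM (SD, n = 2), and the next, Ccl28 and Ccl20, were at 5.96 ± 1.62 and 5.49 ± 1.19, within their spread of each other. In adult HE cells the order was led by Ccl6 at 114 ± 66 RPKM (SD, n = 4), then Ccl28 at 22.8 ± 5.15 and Ccl25 at 16.1 ± 3.01. Cxcl1 was eighth there, at 0.713 ± 0.312. In organoids Ccl25 was again the highest, at 36.7 ± 13.3 RPKM (SD, n = 30), and Ccl20, Cxcl16, Ccl6, Ccl9 and Ccl28 followed between 14.5 and 7.43 RPKM, with steps smaller than their SD. Cxcl1, Cxcl10, Cxcl2 and Cxcl5 were below 1 RPKM in organoids on average.

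**Figure D1:**
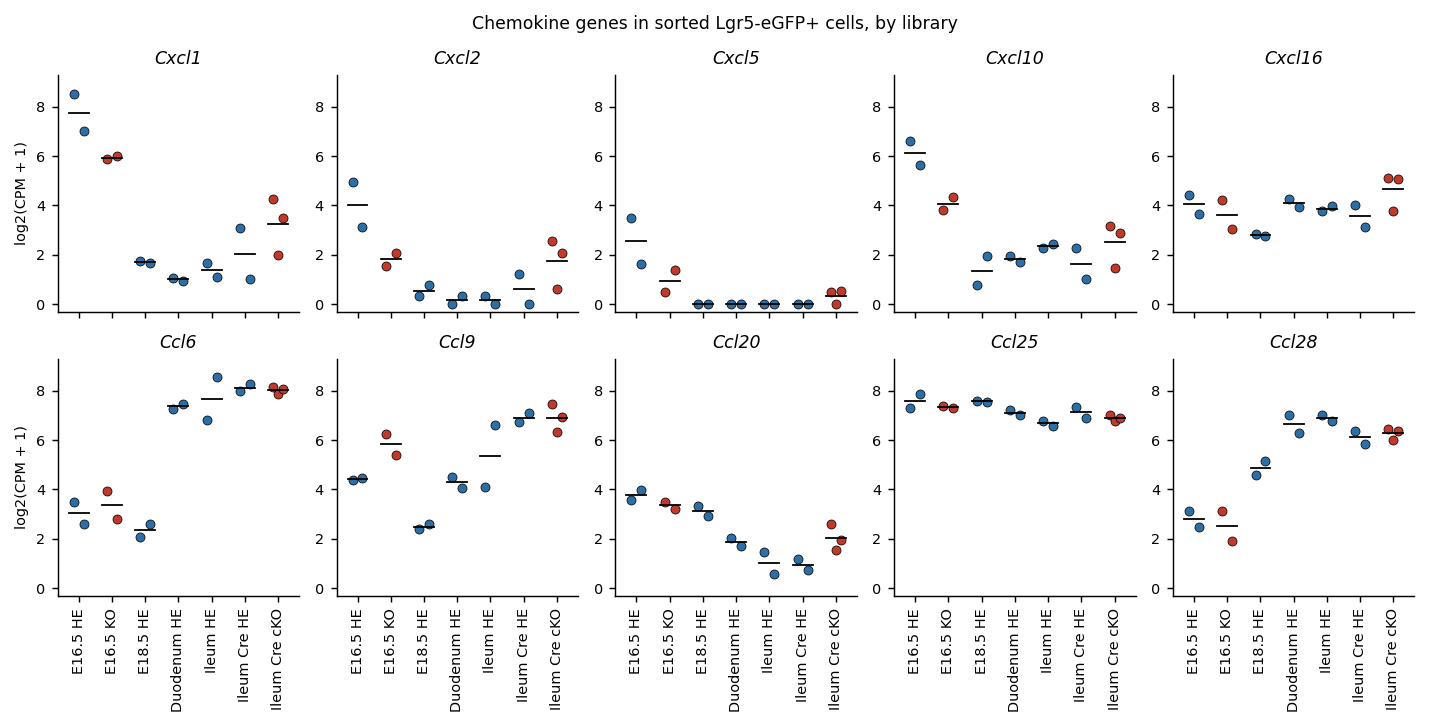
Levels of the 10 chemokine genes in the 15 sorted-cell libraries, on a log2(CPM + 1) axis, with 1 panel per gene. Each point is a library (blue, HE; red, KO or cKO) and each line the mean of its group. Cxcl1 reaches 362 CPM at E16.5 and stays at or below 18.1 CPM in all later libraries, whereas Ccl6 is at or below 14.2 CPM before birth and at or above 110.7 CPM in every adult library.

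To determine whether the chemokines depended on Lgr5 in the fetal intestine, KO and HE pools were compared at E16.5. Cxcl1 was at 362.1 and 128.15 CPM in HE pools 1 and 2 and at 57.45 and 63.15 CPM in KO pools 1 and 2. Cxcl10 was at 96.4 and 48.95 CPM in HE and at 13.05 and 19.1 CPM in KO. For both genes all HE values lay above all KO values, and HE pool 1 was the highest library. The share of all genes without overlap between groups was not counted, here or below. Cxcl1 (log2 fold change -1.82, SE 0.36, adjusted p = 0.0909) and Cxcl10 (-2.05, SE 0.31, adjusted p = 0.0656) fell in KO by limma with Benjamini-Hochberg adjustment. Ccl9 moved the other way, from 19.6 and 21.2 CPM in HE to 75.45 and 40.9 CPM in KO, without overlap, and rose by 1.40 on the log2 scale (SE 0.28, adjusted p = 0.0909). All fold changes here and below are on the log2(CPM + 1) scale, which understates changes of low genes.

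The other neutrophil attractants were low. Cxcl2 was at 29.8 and 7.6 CPM in HE (38 and 15 reads) and at 1.95 and 3.2 CPM in KO (5 and 8 reads), with a log2 difference of -2.21 (SE 0.57) that did not pass (limma adjusted p = 0.15). Cxcl5 was at 10.2 and 2.05 CPM in HE and 0.4 and 1.6 CPM in KO, from 13, 4, 1 and 4 reads (log2 difference -1.61, limma adjusted p = 0.319). The HE and KO values of neither gene overlapped. Ccl25, Ccl20, Ccl28, Ccl6 and Cxcl16 overlapped between genotypes or differed by at most 0.42 on the log2 scale, with adjusted p of 0.622 or more. Ccl25 was at 154.4 and 234.05 CPM in HE and 167.35 and 157.25 CPM in KO, and Ccl28 was under 8 CPM in all 4 pools.

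In all, 3 of the 10 members were called (1 higher, 2 lower) at FDR 0.1 and a fold change of 1.5, where 0.527% of 17276 genes were called (0.0868% higher and 0.44% lower). The median log2 change of the members was -0.41 and that of all genes 0.08. With the litter as a block, Cxcl2 (adjusted p = 0.00034) and Cxcl5 (adjusted p = 0.0944, limma) passed as well, giving 5 of 10 members where 4.8% of all genes passed. In 4 pools that fit leaves little to estimate the spread of each gene from, so its p-values rest mostly on spread borrowed across genes. The Cxcl2 difference was unequal between the litters (29.8 against 1.95 CPM and 7.6 against 3.2 CPM), and litter deviations correlated at -0.0372. Tests on the recovered reads kept Cxcl10 and Ccl9 and added Cxcl2 (edgeR quasi-likelihood adjusted p = 0.0592, DESeq2 0.0533), but DESeq2 did not call Cxcl1 (adjusted p = 0.194). In 1 limma fit of all 15 sorted libraries Cxcl10 was kept, Cxcl2 (adjusted p = 0.0676) and Cxcl5 (0.0764) were added, and Cxcl1 (0.141) and Ccl9 (0.165) were lost, with 1259 genes called. No member was called when any of the 4 pools was left out, with a pseudocount of 0.1 or without the filter on low genes.

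Markers of other cells differed between these pools. The sum of 12 mesenchymal markers was 888 to 1879 CPM in HE and 198 to 542 CPM in KO, and all 12 were detected. The sum of 20 leukocyte markers was 82.2 to 134 CPM in HE and 29.4 to 41.5 CPM in KO, with 6 of them at 0 in both genotypes, among them Cd3g and Cd8a of T cells and S100a8 and S100a9 of neutrophils. Ptprc, the common leukocyte antigen, was at 31.35 and 17.7 CPM in HE and at 2.7 and 8.75 CPM in KO. The sum of 8 enterocyte markers was also higher in HE (1765 to 2295 CPM) than in KO (920 to 1008 CPM). HE pool 1, the highest for Cxcl1, Cxcl2, Cxcl5 and Cxcl10, was also the highest in mesenchymal markers. Ccl9 was lower in the HE pools than in the KO pools. The part of these cells in the chemokine values, Ccl9 included, was not tested. In bulk RNA fewer cells of a type and less RNA per cell cannot be told apart.

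Next, HE cells at E18.5 were compared with those at E16.5. The 4 chemokines of the neutrophil and interferon type were close to absent 2 days later: Cxcl1 was at 2.35 and 2.2 CPM, Cxcl2 at 0.25 and 0.7 CPM, Cxcl10 at 0.7 and 2.85 CPM, and no read of Cxcl5 was counted in either E18.5 embryo. None of these values overlapped with the E16.5 pools. All 4 fell: the log2 fold change was -6.05 for Cxcl1 (SE 0.45, adjusted p = 0.000397, limma), -4.77 for Cxcl10 (SE 0.49), -3.48 for Cxcl2 (SE 0.62) and -2.55 for Cxcl5 (SE 0.61). The Cxcl5 value is set against libraries without a read, and depends on the pseudocount.

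Cxcl16 fell from 20.4 and 11.65 CPM to 6.25 and 5.7 CPM (log2 fold change -1.24, SE 0.33, adjusted p = 0.0239), and Ccl9 from 19.6 and 21.2 CPM to 4.2 and 5.05 CPM (-1.93, SE 0.26, adjusted p = 0.00231). Ccl28, the ligand of Ccr10, was the single member to rise, from 7.85 and 4.55 CPM to 23.3 and 34.4 CPM (log2 fold change 2.06, SE 0.33, limma adjusted p = 0.00405). Ccl25 stayed at one level: 154.4 and 234.05 CPM at E16.5 and 190.05 and 187.7 CPM at E18.5 (-0.01, SE 0.19, adjusted p = 0.972). Ccl6 and Ccl20 did not pass (adjusted p = 0.209 and 0.114), although Ccl20 did with TMM scaling (-0.71, limma adjusted p = 0.0978).

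Thus 7 of 10 members were called, 6 lower and 1 higher, in a comparison in which 49.6% of 18408 genes were called (19.4% of the 18408 lower and 30.3% higher). The members' median change was -1.58 against 0.23 for all genes on the log2 scale. When either E18.5 embryo was left out, no member was called. The stages differed in other ways: the E16.5 libraries were pools and shallower, and the mesenchymal sum was 91.2 to 91.3 CPM at E18.5. The part of these differences in the result was not tested.

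**Figure D2:**
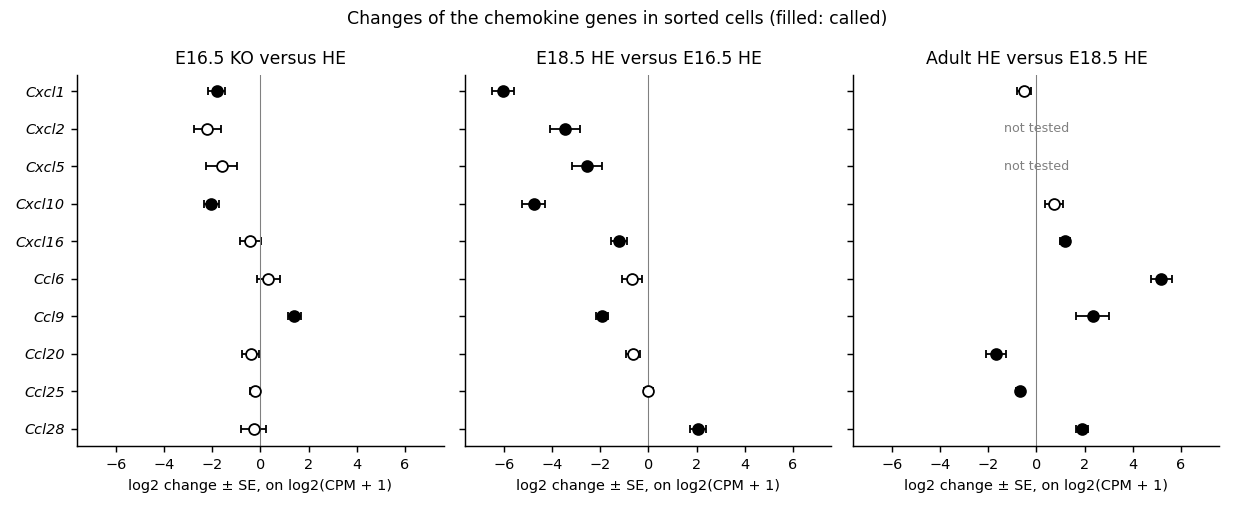
Log2 changes of the chemokine genes in 3 comparisons of sorted cells, with points at the estimate, bars of 1 SE and filled points for genes called at FDR 0.1 and a fold change of 1.5. Cxcl1, Cxcl2, Cxcl5 and Cxcl10 lie below 0 both in KO at E16.5 and from E16.5 to E18.5 (2 comparisons that share the HE pools), and Ccl6 has the highest value between E18.5 and adult cells, at 5.18.

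From E18.5 to the adult intestine the composition of the chemokines changed again. Ccl6, a Ccr1 ligand, was at 3.25 and 5.05 CPM at E18.5 and at 152.9, 110.7, 177.1 and 377.25 CPM in duodenum 71, ileum 71, duodenum 77 and ileum 77. Every adult library was thus far above both embryos, and Ccl6 rose by 5.18 on the log2 scale (SE 0.43, limma adjusted p = 0.000438). Its neighbour Ccl9 was at 4.2 and 5.05 CPM at E18.5 and at 21.6, 16.3, 15.75 and 97.3 CPM in the same adult libraries (2.34, SE 0.68, adjusted p = 0.0549). The ileum of mouse 77 was high for both genes. Ccl28 rose further, from 23.3 and 34.4 CPM to between 76.1 and 130.05 CPM (1.90, SE 0.25, adjusted p = 0.00283).

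Cxcl16 rose from 6.25 and 5.7 CPM to between 12.65 and 18.4 CPM (1.19, SE 0.20, adjusted p = 0.00801). Ccl20, the attractant of Ccr6-bearing cells, fell from 9 and 6.6 CPM to between 0.5 and 3.05 CPM (-1.68, SE 0.40, limma adjusted p = 0.0298). Ccl25 fell slightly, from 190.05 and 187.7 CPM to between 95 and 146.45 CPM (-0.68, SE 0.17, adjusted p = 0.0372). None of these 6 genes, which are the ones called, overlapped between the stages, and the share of all genes without overlap was not counted. Cxcl1 remained at 0.9 to 2.2 CPM and Cxcl10 at 2.25 to 4.35 CPM in the adult, and neither passed (adjusted p = 0.258 and 0.232). Cxcl2 and Cxcl5 did not reach the filter of 1 CPM and were not tested: Cxcl2 was at 0 to 0.25 CPM in the 4 adult libraries, and Cxcl5 had no read there.

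Of the 8 members tested, 6 were called (4 higher, 2 lower), with 19% of 19554 genes called (9.36% higher, 9.65% lower). The same number was called with the mean of both regions of each mouse as the value, which respects that the 4 adult libraries come from 2 mice. In the duodenum alone Cxcl1 passed (-0.71, adjusted p = 0.089, limma) and Ccl25 did not reach the fold change of 1.5 (-0.46). Without E18.5 embryo 1 only 3 members were called, and without embryo 2 only 2. Secretory cell markers moved with stage. The sum of 8 Paneth markers was 146 to 153 CPM at E18.5 and 11488 to 32445 CPM in the adult libraries, highest in the ileum of mouse 77, and that of 7 goblet markers was 356 to 500 CPM and 1373 to 7484 CPM. The leukocyte sum rose from 24.9 to 34.1 CPM to 1511 to 3165 CPM. Most of it was Lyz2 (1474 to 3112 CPM), a lysozyme also made by epithelial cells, while Ptprc was at 0.25 to 1.4 CPM at E18.5 and 12.2 to 71.4 CPM in the adult, and S100a8, S100a9 and Cpa3 were at 0 in the 4 adult libraries. In the ileum of the Cre mice, where Ptprc was at 1.65 to 9.55 CPM and Lyz2 at 21.2 to 54.2 CPM, Ccl6 was at 233 to 307 CPM. Those cells came from another mouse line after tamoxifen, were sorted as eGFP+/RFP+ cells and have no E18.5 counterpart. The part of the secretory cells and of leukocytes in the rise of Ccl6 and Ccl9 was not tested.

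Gut region was examined in the adult, where the ileum was set against the duodenum of the same mice. No member was called by limma (0 of 8 tested, 1 with an unadjusted p under 0.05), while 6.88% of 18608 genes were called. With the mouse as a block it was also 0, where 11.1% of genes were called. Ccl20 was lower in the ileum in both mice, at 1.75 and 0.5 CPM against 3.05 and 2.25 CPM, and Ccl25 at 108.75 and 95 CPM against 146.45 and 127.75 CPM, but with adjusted p of 0.347 and 0.249 neither difference passed. Ccl9 was lower in the ileum than in the duodenum of mouse 71 (16.3 against 21.6 CPM) and higher in the ileum of mouse 77 (97.3 against 15.75 CPM). Without the ileum of mouse 71, the log2 change was 1.19 for Ccl6 and 2.34 for Ccl9, and both values then rest on the ileum of mouse 77 alone.

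Acute loss of Lgr5 in the adult was addressed in the Cre mice. By the labels, Cxcl1 was at 7.4 and 1 CPM in HE samples 1 and 2 and at 18.1, 3 and 10.35 CPM in cKO samples 1, 2 and 3. Cxcl10 was at 3.8 and 1 CPM in HE and at 7.9, 1.75 and 6.35 CPM in cKO, and Cxcl16 at 15.05 and 7.8 CPM in HE and at 33.25, 12.6 and 32.8 CPM in cKO. In each of these genes HE sample 2 and cKO sample 2 were the 2 lowest libraries, and the genotypes overlapped. No member was called by limma (0 of 9 tested, 2 with an unadjusted p under 0.05), with 10 genes called in all (0.0504% of 19848). The log2 differences were 1.22 for Cxcl1 (SE 0.78), 1.14 for Cxcl2, 0.87 for Cxcl10, 1.08 for Cxcl16 and 1.09 for Ccl20, each with an adjusted p of 0.864.

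Ccl6 (232.65 to 307.35 CPM), Ccl9 (78.55 to 173 CPM), Ccl25 (108.45 to 163.15 CPM) and Ccl28 (56.45 to 86.8 CPM) were high in all 5 libraries of the Cre mice, and their differences between the labelled genotypes were 0.24 or less on the log2 scale. Expression of Ccl20 was 1.25 and 0.65 CPM in HE and 5.05, 1.95 and 2.85 CPM in cKO, without overlap. Both HE mice expressed the Y-linked gene Ddx3y (47.3 and 72.95 CPM) and the 3 cKO mice did not (0 to 0.15 CPM), so sex and labelled genotype cannot be told apart here.

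A second version of the genotypes exchanges 2 libraries, counting HE sample 1 as cKO and cKO sample 2 as HE. It comes from the listing of these samples among the material of the published study, and which version is right could not be settled. Under it, the 3 cKO values of Cxcl1 (7.4, 18.1 and 10.35 CPM) all exceed the 2 HE values (1 and 3 CPM). The same holds for Cxcl2, Cxcl10 and Cxcl16. Cxcl1 (log2 difference 2.11, SE 0.41, adjusted p = 0.0508), Cxcl2 (1.64, SE 0.43, adjusted p = 0.0963) and Cxcl10 (1.54, SE 0.34, adjusted p = 0.0685) then passed by limma, with 3.92% of all genes called, and Cxcl16 did not (1.28, adjusted p = 0.101). The 3 libraries then counted as cKO were also the deepest, with 9055253, 8122435 and 9977524 reads against 3084702 and 5715490. Of Cxcl2, 0 and 3 reads were counted in the shallower libraries. Mesenchymal markers summed to 57.8 and 61.8 CPM in cKO samples 1 and 3, the 2 libraries highest in Cxcl1, and to 22.1 to 29.6 CPM in the others. The part of depth and of these cells in this result was not tested.

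**Figure D3:**
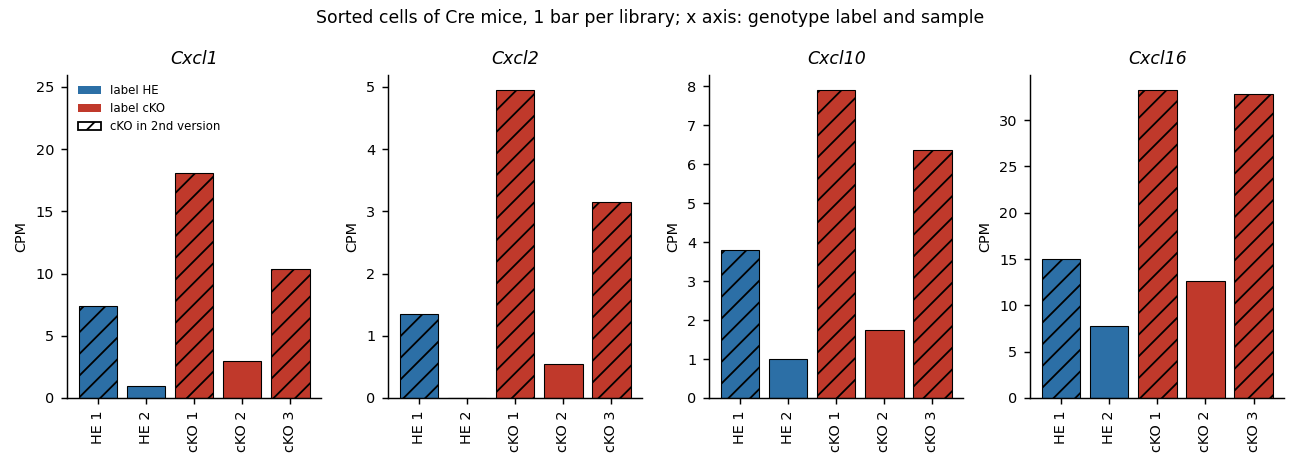
CPM of Cxcl1, Cxcl2, Cxcl10 and Cxcl16 in the 5 sorted libraries of the Cre mice, with 1 bar per library, coloured by the genotype in the labels and hatched where the second version of the genotypes gives cKO. The 3 hatched bars are the highest in each panel, at 7.4, 18.1 and 10.35 CPM for Cxcl1.

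In organoids Cxcl1, Cxcl10, Cxcl2 and Cxcl5 were nearly absent, whereas Ccl25 was the highest member on average. Organoids hold no mesenchyme, and Ptprc was at most 0.2 CPM there. The part of other cell types in the difference from sorted cells was not tested. Cxcl1 was at 0.2 to 2.85 CPM, Cxcl10 at 0.05 to 2.95 CPM, Cxcl2 at 0 to 1.9 CPM and Cxcl5 at 0 to 0.2 CPM over the 30 libraries. The lowest, median and highest values of the others were 11, 31.9 and 91.3 CPM for Cxcl16, 7.65, 16.2 and 48.7 CPM for Ccl6 and 8.75, 25.6 and 69.3 CPM for Ccl9. They were 2.75, 21.9 and 45 CPM for Ccl20, 135.4, 251 and 477 CPM for Ccl25 and 14.1, 38.8 and 62.5 CPM for Ccl28. Sorted cells and organoids were tabulated separately and made with different kits, so their levels are not compared by a test. Cxcl5 did not reach the filter and was not tested.

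The cultures differed in level. Ccl20 was higher in WT10 than in WT5 and WT30 in 6 of 6 media and higher in KO7 than in KO2 in 6 of 6 media. WT30 had the lowest Ccl20 of the WT cultures in 5 of 6 media, down to 2.75 CPM. Cxcl16 was highest in WT10 in 6 of 6 media, and Cxcl1 likewise. Replicates of a genotype thus differed in these genes over all media, and cultures were used as a block in an alternative fit.

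The effect of Rspondin dose was clearest for Ccl25, the small-intestinal homing chemokine. In WT10, WT5 and WT30 it was at 477, 385 and 371 CPM in 5 ng/ml Rspo1 and at 214, 198 and 144 CPM in 100 ng/ml. With Rspo2 the same cultures went from 281, 273 and 320 CPM to 180, 200 and 135.4 CPM, and with Rspo3 from 371, 437 and 382 CPM to 253, 248 and 280 CPM. In none of the 3 ligands did the doses overlap in WT. Ccl25 fell, with log2 fold changes of -1.15 (SE 0.15, adjusted p = 3.15e-06) for Rspo1, -0.77 (SE 0.15, adjusted p = 0.000789) for Rspo2 and -0.60 (SE 0.15, adjusted p = 0.0023) for Rspo3 by limma. At these contrasts the share of all 19130 genes called lower was 12.5%, 9.12% and 13.7%.

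Ccl25 fell in KO organoids as well. It went from 389 and 330 CPM in KO7 and KO2 to 147 and 189 CPM with Rspo1 (log2 fold change -1.10, SE 0.19, adjusted p = 0.000294, limma) and from 397 and 408 CPM to 207 and 194 CPM with Rspo3 (-1.0, SE 0.19, adjusted p = 0.000173). With Rspo2 the KO cultures were at 214 and 201 CPM already at 5 ng/ml and at 155 and 205 CPM at 100 ng/ml, and the change was not called (-0.22, SE 0.19, adjusted p = 0.911). Without the library KO2 in 5 ng/ml Rspo2 it was -0.26 (SE 0.23, adjusted p = 0.819). Ccl25 was lower at the high dose in 14 of the 15 pairs of media of a culture and ligand. The difference in dose effect between KO and WT did not pass for any ligand (limma, Rspo2: 0.55, SE 0.24, adjusted p = 0.342).

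The direction of Ccl28 with dose depended on the ligand. With Rspo3 it rose from 16.9, 16 and 17.8 CPM at 5 ng/ml to 46.95, 51.3 and 43.5 CPM at 100 ng/ml in WT10, WT5 and WT30 (log2 fold change 1.43, SE 0.19, adjusted p = 1.8e-06) and from 14.1 and 16.8 CPM to 18.1 and 31.1 CPM in KO7 and KO2 (0.60, SE 0.23, adjusted p = 0.0403). In both genotypes the doses did not overlap. With Rspo2 it went from 59.15, 62.55 and 42 CPM to 39.15, 38.4 and 39.85 CPM in WT (-0.45, SE 0.19, adjusted p = 0.0726) and from 35.65 and 43.75 CPM to 20.45 and 17.4 CPM in KO (-1.03, SE 0.23, adjusted p = 0.106), which did not pass by limma without the culture block but did with it (adjusted p = 0.0326 and 0.0172).

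With Rspo1 neither dose effect on Ccl28 passed without the culture block. Ccl28 went from 28.9, 49.6 and 33.8 CPM to 39.3, 60.2 and 47.55 CPM in WT, higher in 3 of 3 cultures though the doses overlapped (0.40, SE 0.19, adjusted p = 0.0839), and from 45.45 and 43.65 CPM to 30.2 and 30 CPM in KO, without overlap (-0.55, SE 0.23, limma adjusted p = 0.078). Both changes passed with the culture block (adjusted p = 0.0443 and 0.0347), and the test of their difference did not (-0.95, SE 0.30, adjusted p = 1).

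The difference between the responses of Ccl28 to Rspo3 and Rspo2 (Rspo3 minus Rspo2), a contrast added after the dose effects had been seen, was 1.88 (SE 0.27, adjusted p = 4.27e-05) in WT and 1.63 (SE 0.33, adjusted p = 0.00111) in KO by limma, with 23% and 22.4% of all genes called. No member was called for the other pairs of ligands, where 4.7% and 0.46% of genes in WT and 2.22% and 0.0836% in KO were called for Rspo2 and Rspo3 against Rspo1 (unadjusted p under 0.05 for 1, 3, 1 and 1 members). With the culture block members passed in these pairs too, where 15.7%, 4.17%, 15.4% and 3.95% of genes were called. In WT they were Ccl28 for Rspo2 (-0.84, adjusted p = 0.02) and Cxcl16 (-1.99, adjusted p = 0.00395) and Ccl28 (1.03, adjusted p = 0.0162) for Rspo3, each against Rspo1. In KO they were Ccl25 (0.88, adjusted p = 0.0259) and Cxcl10 (-1.39, adjusted p = 0.0481) for Rspo2 and Ccl28 (1.15, adjusted p = 0.0283) for Rspo3. Without KO2 in 5 ng/ml Rspo2 the KO value was 1.49 (adjusted p = 0.0104). For Ccl25 the same difference was -0.78 in KO (SE 0.27, adjusted p = 0.0375), and it was lost without that library (-0.74, adjusted p = 0.11), whereas Cxcl10 then passed (2.30, adjusted p = 0.0333, limma). The KO rise with Rspo3 itself was lost under TMM scaling (0.33, adjusted p = 0.303). The median of all genes was 0.24 in that contrast and 0.02 after TMM scaling.

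Cxcl16, the transmembrane chemokine, followed ligand and dose in WT organoids. With Rspo3 it fell from 91.3, 39.05 and 58.6 CPM to 28.1, 25.4 and 13.4 CPM in WT10, WT5 and WT30, without overlap (log2 fold change -1.44, SE 0.55, adjusted p = 0.0325). With Rspo2 it was at 30.45, 23.25 and 11 CPM at 5 ng/ml and at 64.85, 48.8 and 31.3 CPM at 100 ng/ml, higher in 3 of 3 cultures (1.18, SE 0.55, adjusted p = 0.102 and, with the culture block, 0.00119). The dose effect of Rspo3 minus that of Rspo2 was -2.62 in WT (SE 0.78, limma adjusted p = 0.0176) and -0.65 in KO (SE 0.95, adjusted p = 0.688). In KO7 and KO2 Cxcl16 went from 62.45 and 32.55 CPM to 86.15 and 28.55 CPM with Rspo3, so the cultures moved apart. The difference in the Rspo3 dose effect between KO and WT was 1.58 (SE 0.87, adjusted p = 1) and did not pass.

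Ccl6 was lower at 100 ng/ml in 13 of 15 pairs of media and Ccl20 in 13 of 15, but neither was called for any ligand in the fit without the block. With Rspo1 in WT the differences were -0.91 for Ccl6 (SE 0.45, adjusted p = 0.0907) and -1.05 for Ccl20 (SE 0.84, adjusted p = 0.298). Both passed with the culture as a block (adjusted p = 0.0159 and 0.0258, limma). Ccl9 differed between ligands in direction, at 0.93 with Rspo2 and -0.95 with Rspo3 in WT (adjusted p = 0.152 and 0.114).

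In all, 1, 1 and 3 of the 9 members tested were called in WT for Rspo1, Rspo2 and Rspo3, where 53.4%, 33.4% and 51.4% of all genes were called (40.9%, 24.3% and 37.8% higher), and 1, 0 and 2 in KO, where 29.8%, 0.115% and 44.5% were (21.9%, 0.115% and 32.7% higher, and 7.86%, 0% and 11.8% lower). Of the KO members with Rspo2, 1 had an unadjusted p under 0.05. The share of members called was below that of all genes in each of the 6 contrasts. With the culture as a block the 5 calls in WT became 14 and the 3 in KO became 9, while the shares of all genes rose to between 47.5% and 64.1% in WT and between 1.17% and 55.1% in KO. The block added, for the low chemokines, Cxcl10 with Rspo3 in WT (0.78, adjusted p = 0.0159) and in KO (1.00, adjusted p = 0.0135), and Cxcl1 with Rspo1 in KO (0.70, adjusted p = 0.0263) and with Rspo3 in WT (-0.50, adjusted p = 0.0358). These rest on levels under 3 CPM.

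Cell type markers moved with the dose too. Over all cultures and ligands the sum of 8 enterocyte markers was 3700 to 10821 CPM at 5 ng/ml and 2767 to 7301 CPM at 100 ng/ml, while the sum of 6 stem cell markers was 57.8 to 2292 CPM and 630 to 3494 CPM and that of the Paneth markers 100.1 to 1050 CPM and 505 to 1922 CPM. The enterocyte sum of WT organoids was highest in 5 ng/ml Rspo3 (10183 to 10821 CPM). The part of these cell types in the changes of Ccl25, Ccl28 and Cxcl16 was not tested.

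**Figure D4:**
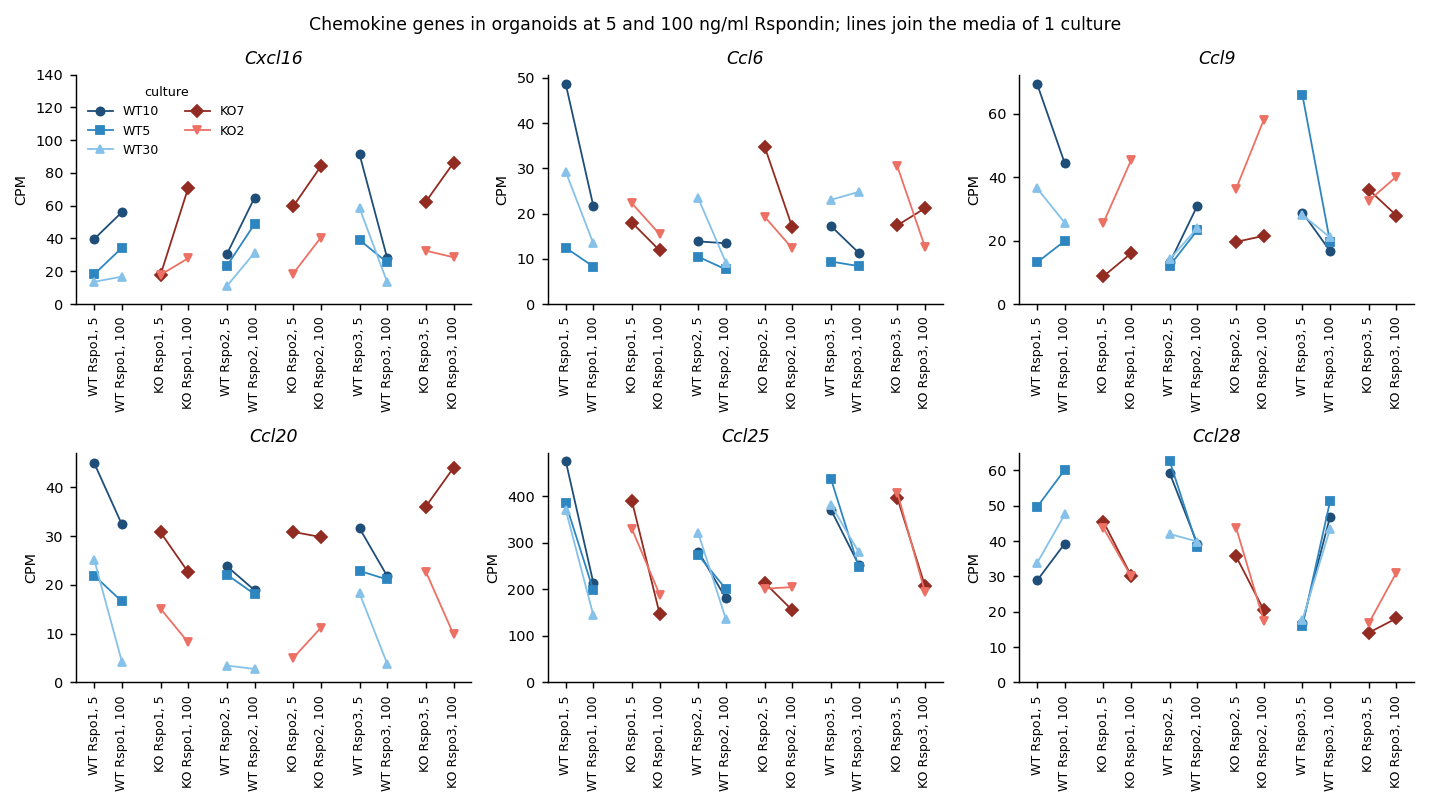
CPM of 6 chemokine genes in organoids at 5 and 100 ng/ml of Rspo1, Rspo2 and Rspo3, on linear axes starting at 0. Each symbol is a library and lines join both doses of a culture (blue, WT; red, KO). Ccl25 falls with dose in all 9 WT pairs, Ccl28 rises with Rspo3 in all 5 cultures, and Cxcl16 falls with Rspo3 in WT while WT10 stays above the other WT cultures.

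The ligands were also compared at matched dose, as 8 contrasts with Rspo1, with p-values adjusted over all genes in each. At 5 ng/ml in WT, Rspo2 gave higher Cxcl10 (0.1, 0.2 and 0.05 CPM with Rspo1, and 2.45, 1.35 and 1.05 CPM with Rspo2 in WT10, WT5 and WT30; log2 difference 1.20, SE 0.40, adjusted p = 0.035), higher Ccl28 (0.55, SE 0.19, adjusted p = 0.0413) and lower Ccl25 (-0.49, SE 0.15, adjusted p = 0.0259, limma). These were 3 of 9 members, with 22.8% of all genes called. The Ccl28 call was lost with TMM scaling (0.46, adjusted p = 0.115, limma) and in 6 of 12 alternatives in all, the Ccl25 call in 4 of 12 and the Cxcl10 call in 4 of 11, and without culture WT10 all of these calls were lost. Rspo3 gave lower Ccl28 than Rspo1 at 5 ng/ml in WT (16.9, 16 and 17.8 CPM against 28.9, 49.6 and 33.8 CPM; -1.07, SE 0.19, adjusted p = 0.000627) and in KO (14.1 and 16.8 CPM against 45.45 and 43.65 CPM; -1.48, SE 0.23, adjusted p = 0.000175), where 16.4% and 16.2% of all genes were called. In both genotypes the ligands did not overlap.

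Ccl25 was lower with Rspo2 than with Rspo1 at 5 ng/ml in KO (-0.78, SE 0.19, adjusted p = 0.00702, 17.9% of genes called), and this was no longer called without the KO2 library in Rspo2 (-0.74, SE 0.23, adjusted p = 0.059, limma). At 100 ng/ml no member was called for any ligand or genotype, where 39, 1, 2 and 0 genes were called for Rspo2 and Rspo3 in WT and KO (0.204%, 0.00523%, 0.0105% and 0%). The unadjusted p was under 0.05 for 0, 1, 1 and 0 members there. With the culture block, Ccl25 was higher with Rspo3 than with Rspo1 at 100 ng/ml in WT (0.51, adjusted p = 0.029), and at 5 ng/ml Cxcl16 was higher with Rspo3 than with Rspo1 in WT (1.42, adjusted p = 0.000471) and KO (1.29, adjusted p = 0.0049).

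Finally, KO and WT organoids were compared in each medium. Ccl28 was lower in KO at 100 ng/ml of Rspo2, at 20.45 and 17.4 CPM against 39.15, 38.4 and 39.85 CPM (log2 difference -1.01, SE 0.21, adjusted p = 0.0169), and at 100 ng/ml of Rspo3, at 18.1 and 31.1 CPM against 46.95, 51.3 and 43.5 CPM (-0.96, SE 0.21, adjusted p = 0.03, limma). The genotypes did not overlap in either medium. With Rspo1 at 100 ng/ml the values were 30.2 and 30 CPM in KO and 39.3, 60.2 and 47.55 CPM in WT (-0.66, SE 0.21, adjusted p = 0.339). The shares of all genes called were 1.2% and 0.868% in the Rspo2 and Rspo3 media and 0.214% with Rspo1. Without WT10, WT30 or KO7, and in a fit of only the groups compared, neither call remained. At 5 ng/ml no member was called (0.125%, 4.54% and 0.193% of genes for Rspo1, Rspo2 and Rspo3), with an unadjusted p under 0.05 for 0, 1 and 0 members.

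With each culture averaged over its 6 media, Ccl28 differed by -0.49 between KO and WT (SE 0.12, limma adjusted p = 0.261), and no member was called (0 of 8, 1 with an unadjusted p under 0.05), with 0.171% of genes called. The dose effect did not differ between genotypes for any member by limma (0 of 9 for each ligand, 1 with an unadjusted p under 0.05 for each). The WT cultures lacked Ddx3y (at most 0.45 CPM) and the KO cultures expressed it (55 to 73.5 CPM), so sex and genotype cannot be told apart in organoids.

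Apart from Ccr9 in organoids, the receptors of these chemokines were scarce in the same cells. Cxcr2, Cxcr3 and Ccr6 stayed at or below 0.8 CPM and Ccr10 at or below 1.6 CPM in all 45 libraries, Ccr1 at or below 3.15 CPM, and Cxcr6 at or below 4.35 CPM. Ccr9, the receptor of Ccl25, was at 0 to 5.2 CPM in sorted cells and at 7.4 to 74.95 CPM in organoids. Ccr9 fell with dose in WT with Rspo1 (-1.71, SE 0.28, adjusted p = 3.91e-05) and Rspo3 (-1.81, SE 0.28, adjusted p = 1.52e-05, limma) and in KO with Rspo3 (-1.54, SE 0.35). It was not called in WT with Rspo2 (-0.41, limma adjusted p = 0.281) or in KO with Rspo1 (-0.90, adjusted p = 0.0556), where Ccl25 was called. In KO with Rspo2 neither gene was called (0.12 for Ccr9). Ackr4, a scavenging receptor that also binds Ccl25, fell with dose in 5 of 6 contrasts (log2 fold changes of -1.31 to -0.88), and was lower in ileum (9 and 10.55 CPM) than in duodenum (29.45 and 31.2 CPM; -1.54, SE 0.21, adjusted p = 0.00994).

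Of 28 other chemokine genes, 14 reached 1 CPM in a sorted library and 4 in an organoid library. At E16.5, 1 of 10 tested was called: Ccl11, the eosinophil attractant, was at 40.8 and 19.7 CPM in HE and at 5 and 4.8 CPM in KO (log2 fold change -2.32, SE 0.38, adjusted p = 0.0677). From E16.5 to E18.5 7 of 8 fell and 1 rose, where 19.4% of all genes fell and 30.3% rose. The log2 fold change was -4.25 for Ccl11, -3.81 for Ccl2, -2.30 for Cxcl13, -2.25 for Ccl24 and -2.21 for Cxcl12, and the first 3 of these were at most 0.9 CPM at E18.5. Among 4 tested in the adult, 1 rose and 1 fell against E18.5, where 9.36% of all genes rose and 9.65% fell. Between gut regions 1 was higher in ileum, where 417 of 18608 genes were higher. None of 5 was called in the Cre mice, where 0.0504% of all genes were. With dose in organoids 1 of 2 tested fell in 5 of 6 contrasts, KO with Rspo2 being the exception, and 1 rose in 1 of them. Between 0% and 13.7% of all genes fell and between 0.115% and 40.9% rose in these 6 contrasts.

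Chemokine receptors as a list of 22 had 14 members that reached 1 CPM in sorted cells and 6 in organoids. None of 7 was called at E16.5, where 0.527% of all genes were. From E16.5 to E18.5, where 49.6% of all genes were called, 2 of 8 rose (with Ccr9 among them, 1.30) and 2 fell, namely Cx3cr1 (-1.0) and Cxcr4 (-1.12). In E16.5 HE pools 1 and 2 Ccr9 was at 0.8 and 0 CPM, Cx3cr1 at 3.15 and 2.05 CPM and Cxcr4 at 2.4 and 2.05 CPM. There 3 reads were worth 2.35 and 1.51 CPM, so these changes rest on few reads. In the adult 1 of 7 fell, where 9.65% of all genes fell. It was Ccr4 (-1.43), which was at 2.55 and 1.8 CPM at E18.5. None of 6 was called in the Cre mice, where 0.0504% of all genes were. With dose in WT organoids, of 5 tested, 2 rose and 2 fell with Rspo1, 2 rose and 1 fell with Rspo2 and 1 rose and 2 fell with Rspo3, where 53.4%, 33.4% and 51.4% of all genes were called. In KO, 2 rose and 1 fell with Rspo1, none was called with Rspo2, and 1 rose and 2 fell with Rspo3 (29.8%, 0.115% and 44.5% of all genes). Cxcr4, the receptor of Cxcl12, rose with Rspo1 by 0.92 (SE 0.21, limma adjusted p = 0.000872).

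Among 26 genes for inducers of chemokines and their receptors (Toll-like and cytokine receptors), none of 24 was called in KO at E16.5 and none of 26 in the Cre mice. Of all genes only 0.527% and 0.0504% were called in these 2 comparisons. From E16.5 to E18.5 11 of 24 rose and 6 fell, where 30.3% of all genes rose and 19.4% fell: Il22ra1, a subunit of the IL-22 receptor, rose by 2.51, the flagellin receptor Tlr5 by 1.91 and the double-stranded RNA sensor Tlr3 by 1.78 on the log2 scale, while the IL-1 receptor antagonist Il1rn fell by 2.71. In the adult 4 of 25 rose and 2 fell against E18.5 (Tlr3 2.92, Tlr5 -3.26), where 9.36% of all genes rose and 9.65% fell. In ileum 5 of 25 were higher than in duodenum, where 417 of 18608 genes were higher. Among them was the endotoxin receptor Tlr4 (15.35 and 12.4 CPM against 0.2 and 2.05 CPM, log2 difference 2.95, SE 0.45, limma adjusted p = 0.0162). In organoids Tlr4 was higher in KO than in WT in 5 of 6 media, by 1.08 to 1.80 on the log2 scale, the difference with Rspo1 at 5 ng/ml being the exception.

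Of 24 NF-kB and interferon response factors, all 24 reached 1 CPM in every library. None was called in KO at E16.5 or in the Cre mice, where 0.527% and 0.0504% of all genes were. From E16.5 to E18.5 7 of 24 rose and 3 fell, where 30.3% of all genes rose and 19.4% fell, with the NF-kB subunit Rel among those that fell (-1.89), and Irf7 (1.69), Irf9 (1.16) and the kinase Ikbke (1.78) among those that rose, while Cxcl10 fell. In the adult 10 of 24 rose and none fell against E18.5 (9.36% and 9.65% of all genes). Irf7, a factor of the interferon response, rose by 3.30 on the log2 scale (SE 0.73, limma adjusted p = 0.0221), and Cxcl10, an interferon target, did not pass. In WT organoids 4 rose and 4 fell with Rspo1, 2 and 2 with Rspo2 and 1 and 7 with Rspo3, where 53.4%, 33.4% and 51.4% of all genes were called. In KO organoids 1 rose and 3 fell with Rspo1, none was called with Rspo2, and 1 rose and 4 fell with Rspo3, where 29.8%, 0.115% and 44.5% of all genes were called.

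Of 6 chemokine-processing enzymes, 5 were tested at E16.5 and 1 fell in KO, where 0.44% of all genes fell. It was the lysosomal protease Ctss, which went from 47.05 and 23.75 CPM to 4.25 and 8.75 CPM (-2.27, SE 0.40, limma adjusted p = 0.0701). Ctss is also abundant in macrophages. From E16.5 to E18.5 it fell too (-1.68), and in the adult it rose (1.32), as did Mmp7, the Paneth cell metalloprotease (6.74, SE 0.71, limma adjusted p = 0.00115), whereas Dpp4, a peptidase of the enterocyte surface that trims chemokines, fell (-1.01). Mmp7 rose with dose in WT with Rspo1 (1.98) and Rspo2 (2.84) and in KO with Rspo1 (2.66) and Rspo3 (2.52). Adam17, a sheddase of surface proteins, rose with Rspo1 (0.24) and Rspo3 (0.39) in WT.

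To describe which genes followed the same pattern over the 30 organoid libraries, the log2 levels of each member with a mean of at least 5 CPM were correlated with those of 10635 genes. The libraries share cultures and media, so these correlations are descriptions. Ccl25 was most like Pdzd3 (r = 0.978), Tmed4 (0.976) and Rasgrp4 (0.972), and had 1035 genes above 0.8. Ccl20 was most like Parp3 (0.85), Ikbke (0.825) and Birc3 (0.817), and Ccl6 like the goblet cell peptide Tff3 (0.815), Selenok (0.81) and Nudt16 (0.799). Ccl28 was most like Tcf3 (0.848), Top2b (0.847) and Cbl (0.843), and Ccl9 like Heatr6 (0.782), Dnase2a (0.749) and Tas1r3 (0.733). Cxcl16 was most like Zmynd15 (0.993), the gene with which it shares exon bases, followed by Rdh10 (0.924) and Cnksr1 (0.891). Among the members, Cxcl1 and Cxcl2 followed each other (r = 0.898) at levels under 3 CPM.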

How the data were processed

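RNA of sorted cells (15 libraries, Ovation SoLo) and of organoids (30 libraries, NEBNext with rRNA depletion) was sequenced. Per the submitters' processing notes and the methods, reads were trimmed with Trimmomatic 0.36, aligned with STAR 2.5.3a to GRCm38.p4 and counted with HTSeq 0.9.1, and the authors deposited CPM values per gene, rounded to 0.05, in 2 separate tables. Groups were taken from the labels. Genes had to reach 1 CPM in a number of libraries equal to the size of the smallest group, and their log2(CPM + 1) values were fitted with limma 3.58.1 (trend) in R 4.3.3. Sorted cells were called at a Benjamini-Hochberg FDR of 0.1 and a fold change of 1.5, organoids (12 groups in 1 fit) at an FDR of 0.05. The fits were tested on simulated data.

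The members and gene lists were chosen with earlier results of these data known. Named genes were all 10 members, their receptors, the 3 genes most correlated with each member over the organoids (among genes with a mean of at least 10 CPM), and from each list at most 5 genes by absolute log2 fold change among those called in at least 1 comparison of sorted cells or 3 organoid contrasts. Depth follows from the steps between CPM values. In the E16.5 pools 100% of values under 20 CPM lay within 0.1 read of a whole read, so reads were recovered and tested with edgeR 4.0.16 and DESeq2 1.42.0. These count tests were not run for other comparisons. A level of 3 reads corresponds to 0.301 to 2.35 CPM in sorted cells, which covers counting error only. RPKM is CPM per kilobase of merged exons (GENCODE M21, GRCm38), and promoters are from RefSeq.

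Litter, mouse and culture pair libraries, litters and mice by the labels. Deviations from group means correlated at -0.0372 (litter), 0.344 (mouse) and 0.109 to 0.884 (cultures, all 45 WT and 30 KO pairs of media over 0.1). For E18.5 embryos and Cre mice the labels name separate animals. Alternatives were another pseudocount, filter, scaling, block, and leaving out each library or culture. A fit that leaves a group with 1 library assumes that it varies like the others. Some results are not reported here.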

Additional observations from a re-analysis of the deposited data

Results flagged for a closer look

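Ccl9 was at 97.3 CPM in the ileum of adult mouse 77, far from the other 3 adult HE libraries (15.75 to 21.6 CPM). The gap to the nearest of them was 0.928 of the range of the 4 libraries. It was the single one of the 9 members tested in groups of 4 that stood apart in this way, and chance marks about 1 in 20 such groups. In the same library Ccl6 was at 377 CPM and the Paneth marker sum at 32445 CPM, both the highest of the 4. The part of Paneth cells in these values was not tested.

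The response to Rspondin dose differed between Rspo3 and Rspo2 in 4 cases by limma, a contrast added after the dose effects had been seen. On the log2 scale the difference (Rspo3 minus Rspo2) was -2.62 for Cxcl16 and 1.88 for Ccl28 in WT organoids, and -0.78 for Ccl25 and 1.63 for Ccl28 in KO organoids. The Ccl25 difference was no longer called without the KO2 library in 5 ng/ml Rspo2. Cxcl16 shares exon bases with Zmynd15, and how reads on these bases were assigned is not known.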

How the results depend on the processing

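Of 435 values of the 36 called results under the alternatives, 342 kept direction and call, 93 lost the call and 0 turned direction. Of 3296 values of results that were not called, 91 became called. The number of members called at E16.5 (3) was 0 with a pseudocount of 0.1, 0 without the filter, 5 with the litter as a block and 0 to 0 when a pool was left out. Leaving out 1 library gave 0 to 8 for E18.5 against E16.5, 2 to 7 for adult against E18.5 and 0 to 2 for ileum against duodenum. In the Cre mice it was 0 to 0 by the labels. With the second version of the genotypes it was 3, with a pseudocount of 0.1 as well 4, with TMM scaling as well 2, and 0 to 4 without 1 library.

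In organoids, the 5 calls for dose in WT became 8 with TMM scaling, 14 with the culture as a block, 8 in fits of only the groups compared and 4 to 6 without 1 culture. The 3 calls for dose in KO became 9 with the block and 1 to 4 without 1 culture. The 4 ligand calls in WT became 1 without the filter, 2 with a fold change of 1.5 required, 9 with the block and 1 to 5 without 1 culture, and the 2 in KO became 5 with the block, 1 without KO2 in 5 ng/ml Rspo2 and 1 to 3 without 1 culture. The 2 calls between KO and WT became 1 without the filter, 0 in fits of only the groups compared and 0 to 1 without 1 culture. The 4 dose-by-ligand calls became 14 with the block and 2 to 5 without 1 culture. Dose by genotype and the culture means gave 0 to 0. The block changed no other number of calls by over 1.5 times. The cause of these shifts was not tested.

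The number of all genes called ranged over the alternatives from 0 to 1259 at E16.5 (91 as reported), 5212 to 9467 for E18.5 against E16.5 (9138), 223 to 2065 between gut regions (1280) and 3 to 779 in the Cre mice (10). For dose it was 6318 to 12265, 3690 to 9092 and 6521 to 11819 in WT with Rspo1, Rspo2 and Rspo3, and 1264 to 8387, 0 to 224 and 5901 to 10534 in KO. HE and cKO Cre mice share only a sample number. Cxcl2 and Cxcl5 rest on few reads in sorted cells after E16.5.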
